A study of Homo sapiens with 4 samples.

Results

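10 genes of cytokine signalling were followed across 4 lines of human acute lymphoblastic leukaemia (ALL) of B-cell precursors: the receptor chains IL7R and EPOR, the kinases JAK1 and JAK2, the transcription factors STAT5A and STAT5B, the inhibitors SOCS1, SOCS2 and CISH, and the kinase PIM1. The 10 genes were chosen by name among 18377 genes of the arrays, with earlier results of these data known. Each was read by 1 probe set. RS4;11 and SEM have the chromosome translocation t(4;11), a fusion of KMT2A (MLL) with AFF1, and form the group of translocation lines. The non-translocation lines NALM6 and REH lack it. Total RNA of each line, grown in RPMI medium with fetal bovine serum to sub-confluency, was hybridised to 1 Affymetrix whole-transcript array. No cytokine or drug is named in the labels for any line. Each group was 2 lines with different further lesions, such as the ETV6-RUNX1 fusion of REH, and these cannot be told apart from the translocation.

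Interleukin 7 is the main growth factor of B-cell precursors, and its receptor pairs the IL7R chain with the common gamma chain IL2RG. Ligand binding activates JAK kinases bound to the receptor tails, which phosphorylate STAT5, and STAT5 then enters the nucleus and switches on genes that include SOCS2, CISH and PIM1. SOCS1, SOCS2 and CISH in turn bind receptors or JAKs and dampen the signal that induced them. EPOR, the erythropoietin receptor of red cell precursors, uses JAK2 and STAT5 in the same way. Protein and phosphorylation were not measured on these arrays.

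Levels are given as log2 values, so that 1 unit is a 2-fold step, and differences are the translocation lines minus the non-translocation lines, tested with limma and adjusted over all 18377 genes. The median of all gene values was 6.75. A probe set with all 4 lines below it is called dim here, since the values carry no detection call. Of the 18377 genes 10259 were not dim by this rule. On an array of bulk RNA, less of a transcript per cell and fewer cells that carry it cannot be told apart. The replicate was the line, and 2 lines against 2 cannot give an exact permutation p below 0.333.

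SOCS2 was the member with the widest gap between the groups. It was at 7.07 in RS4;11 and 5.85 in SEM, against 10.23 in NALM6 and 10.12 in REH. The higher translocation line lay 3.05 below the lower non-translocation line, and the groups did not overlap. The group means were 6.46 ± 0.86 in the translocation lines and 10.17 ± 0.07 in the non-translocation lines (SD, n = 2 lines each), a 13.1-fold lower level (log2 difference -3.71, SE 0.48, 95% interval -5.15 to -2.26). The limma p was 0.00307 unadjusted and 0.279 adjusted, so that SOCS2 did not pass the threshold of 0.05. Over the alternative settings and with each line left out the difference lay between -4.32 and -3.10, and the adjusted p between 0.152 and 0.384.

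Among the 10 members 0 passed limma's adjusted threshold, against 0.0218% of all genes (4 of 18377). SOCS2 alone had an unadjusted p below 0.05, a rule met by 9.39% of all genes, and it alone was parted by at least 2-fold between the groups, a rule met by 1.84%. A difference as large in size as that of SOCS2 was found in 0.37% of all genes. The groups did not overlap in 4 members, IL7R, JAK2, STAT5B and SOCS2, all lower in the translocation lines. This ordering, lower and without overlap, was found in 19.8% of all genes. The difference was below 0 in 9 of 10 members, JAK1 being the exception, and in 47.1% of all genes. The median difference was -0.32 over the members and 0.01 over all genes.

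**Figure D1:**
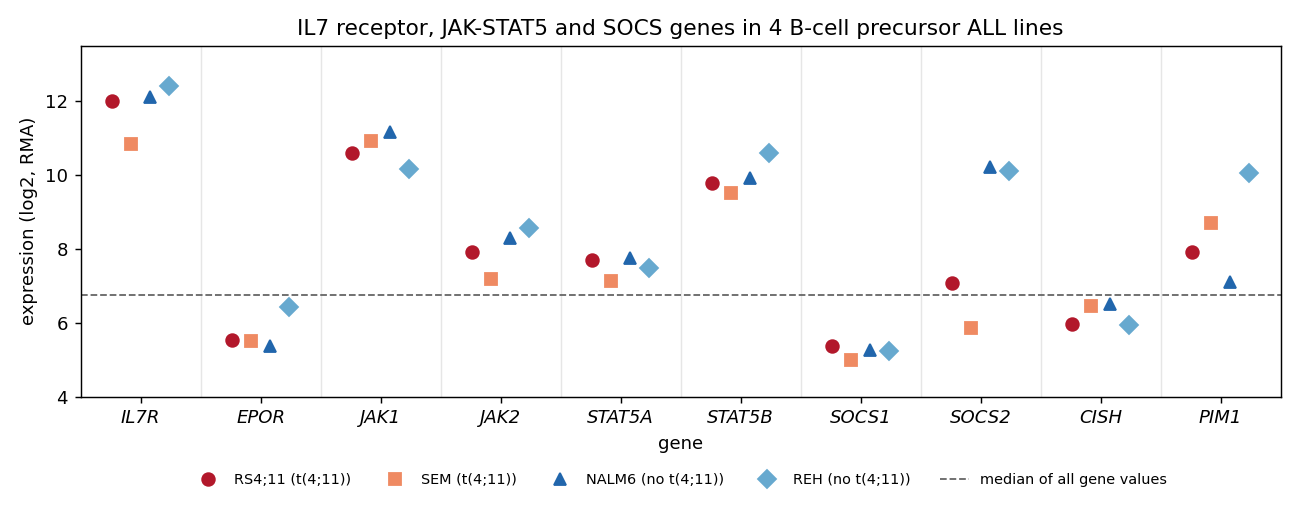
Expression (log2, 1 array per line) of the 10 genes in the translocation lines RS4;11 and SEM and in the non-translocation lines, NALM6 and REH; the dashed line is the median of all gene values, 6.75. SOCS2 is the gene whose groups lie farthest apart, at 7.07 and 5.85 against 10.23 and 10.12, and PIM1 spreads most within a group, at 7.11 in NALM6 and 10.05 in REH.

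Of the receptor chains, IL7R was bright in every line. It was at 12.01 in RS4;11 and 10.84 in SEM, against 12.10 in NALM6 and 12.42 in REH. SEM was the low line, 1.16 below RS4;11, the next above it (2.24-fold), while RS4;11, NALM6 and REH lay within 0.42 of each other. The group means were 11.43 ± 0.82 in the translocation lines and 12.26 ± 0.23 in the non-translocation lines (difference -0.84, SE 0.47, limma adjusted p = 0.699). RS4;11 was only 0.10 below NALM6, and without SEM the difference was -0.26, so that SEM carried most of it. IL2RG, the partner chain of IL7R, was at 12.11 in RS4;11 and 11.22 in SEM, against 11.56 in NALM6 and 11.86 in REH, with SEM again the lowest and the groups overlapping. CRLF2, the chain that joins IL7R to form the receptor of TSLP, was dim, at 4.65 in RS4;11 and 4.47 in SEM, against 4.69 in NALM6 and 5.54 in REH.

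EPOR was dim in all 4 lines. It was at 5.53 in RS4;11 and 5.50 in SEM, against 5.38 in NALM6 and 6.43 in REH. REH stood 0.90 above RS4;11, its next neighbour (1.86-fold), and the other 3 lines lay within 0.15 of each other. The group difference was -0.39 (SE 0.41, limma adjusted p = 0.795), and without REH it was 0.13. High EPOR is a known trait of ETV6-RUNX1 ALL, the type that REH stands for. EPOR in REH was the highest of the 4 lines and below the median of all gene values, and a link to the fusion was not tested. Of 7 measured erythroid markers 6 were dim in every line, among them the haemoglobin gene HBB, at 4.94 in REH and 4.50 to 4.71 in the others. HBB had the 4 lines in the order of EPOR, and REH was highest in 2 of the 7 markers, against 25% of all genes. TFRC, the marker that was not dim, was lowest in REH, at 10.67. The mean over the 7 was 5.94 in REH, with values of 5.94 to 6.02 elsewhere. A link between EPOR and these markers was not tested.

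JAK1, the kinase bound to IL7R, was at 10.60 in RS4;11 and 10.92 in SEM, against 11.16 in NALM6 and 10.18 in REH. The non-translocation lines held both the highest and the lowest value, and the group means differed by 0.09 (SE 0.41, 95% interval -1.14 to 1.32, limma adjusted p = 0.958). JAK2, the kinase of EPOR and of the TSLP receptor, was at 7.93 in RS4;11 and 7.20 in SEM, against 8.29 in NALM6 and 8.58 in REH. Its groups did not overlap, with a gap of 0.36 between RS4;11 and NALM6. The means were 7.56 ± 0.52 in the translocation lines and 8.43 ± 0.21 in the non-translocation lines (difference -0.87, SE 0.32, limma adjusted p = 0.565). Without SEM the JAK2 difference was -0.51. JAK3, the kinase bound to IL2RG, differed by 0.36 and TYK2, a kinase of interferon receptors, by -0.11. Of the 4 JAK family genes 0 passed, 2 had a difference above 0 and 2 below.

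STAT5A was at 7.69 in RS4;11 and 7.13 in SEM, against 7.77 in NALM6 and 7.49 in REH. The groups overlapped (difference -0.22, SE 0.25, limma adjusted p = 0.813). STAT5B was at 9.79 in RS4;11 and 9.51 in SEM, against 9.91 in NALM6 and 10.60 in REH. REH was the high line, 0.69 above NALM6 (1.62-fold), and the groups were parted by 0.12. The STAT5B difference was -0.61 (SE 0.30, limma adjusted p = 0.664), and -0.26 without REH. STAT5A and STAT5B lie side by side on chromosome 17 and encode very similar proteins, and whether their probe sets share sequence was not tested here. Among the other STAT genes measured, STAT6, the factor of interleukin 4, differed by 0.22 (limma adjusted p = 0.687), and 0 of 5 STAT genes passed.

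**Figure D2:**
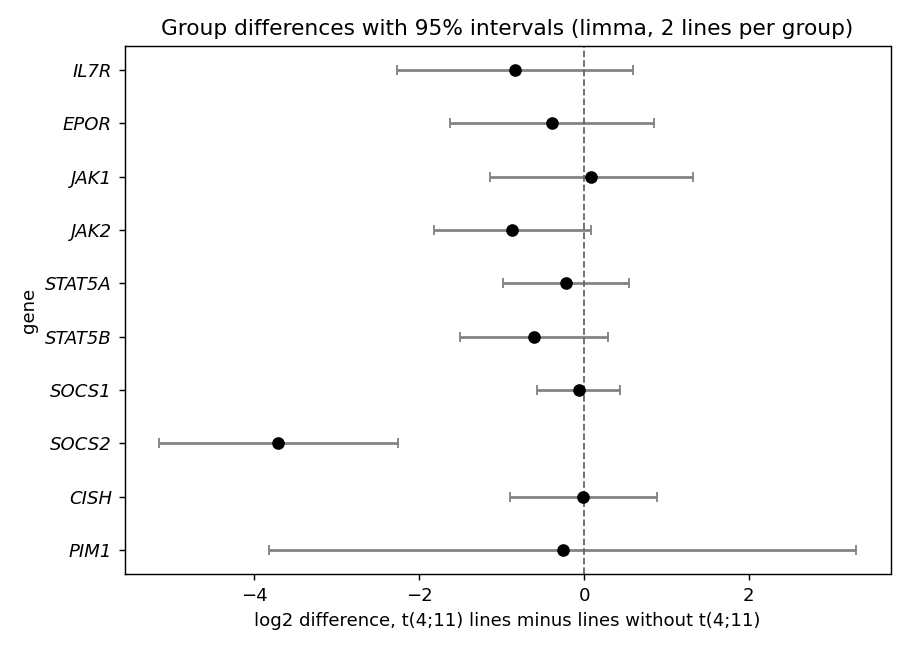
Log2 difference of each of the 10 genes, translocation lines minus non-translocation lines, with 95% intervals from limma (2 lines per group, before adjustment for the number of genes). The interval of SOCS2, -5.15 to -2.26, lies below 0, and those of the other 9 genes include 0, the widest being that of PIM1.

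Within its family, SOCS2 had the widest spread. The SOCS proteins share an SH2 domain and a SOCS box, which recruits a ubiquitin ligase. Of the 8 family members measured, SOCS2 was the 1 gene whose 4 lines spanned at least 2-fold, against 19.3% of all genes. Within the translocation lines SOCS2 was 1.22 higher in RS4;11 than in SEM, and within the non-translocation lines NALM6 and REH differed by 0.10. SOCS1, which blocks JAK kinase activity, was dim, at 5.36 in RS4;11 and 4.98 in SEM, against 5.25 in NALM6 and 5.23 in REH (difference -0.07, SE 0.17, 95% interval -0.57 to 0.44). CISH was dim as well, at 5.97 in RS4;11 and 6.45 in SEM, against 6.50 in NALM6 and 5.94 in REH, with SEM and NALM6 within 0.05 of each other (difference -0.01, SE 0.30, 95% interval -0.90 to 0.88). The limma adjusted p was 0.924 for SOCS1 and 0.996 for CISH. SOCS7 differed by -0.30 (limma adjusted p = 0.762) and SOCS6 by 0.20 (0.770). The family median difference was -0.12, with 7 genes below 0 and 1 above, against 47.1% of all genes below 0. Without the members in the family, 4 were below 0 and 1 above, with a median of -0.12.

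**Figure D3:**
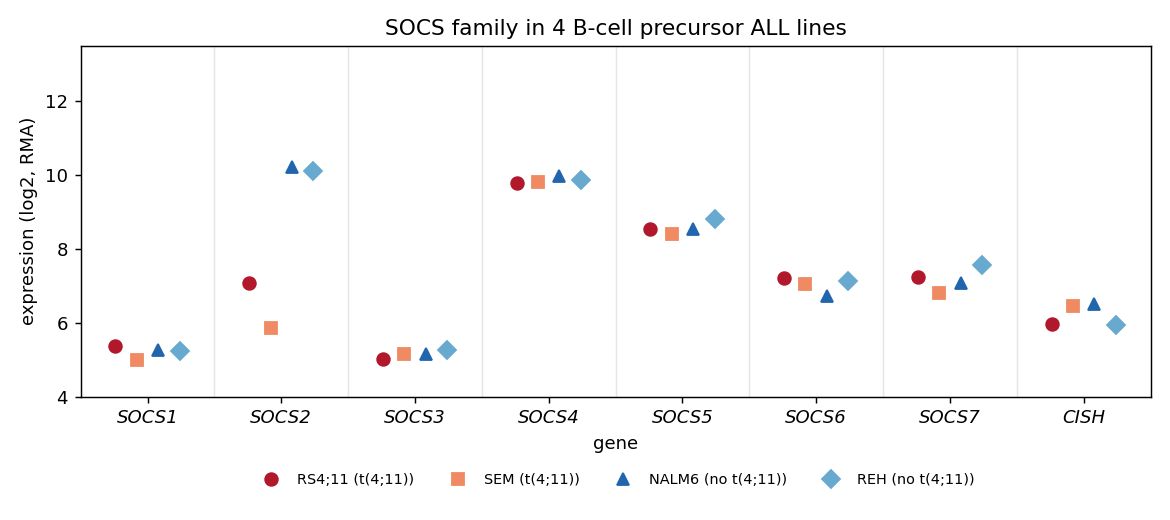
Expression (log2, 1 array per line) of the 8 SOCS family genes in the translocation lines RS4;11 and SEM and in the non-translocation lines, NALM6 and REH. SOCS2 spans 4.37 units, from 5.85 in SEM to 10.23 in NALM6, while each of the other 7 genes spans less than 1 unit.

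PIM1, a serine/threonine kinase that promotes survival, spread by line, with overlapping groups. It was at 7.93 in RS4;11 and 8.71 in SEM, against 7.11 in NALM6 and 10.05 in REH. The non-translocation lines held both ends, with NALM6 lower than REH by 7.71-fold, and both translocation lines lay between them. The group means were 8.32 ± 0.55 in the translocation lines and 8.58 ± 2.08 in the non-translocation lines (difference -0.26, SE 1.18, limma adjusted p = 0.957). Without REH the difference was 1.21. REH was 2.54-fold above SEM, the next line, and REH stood at least 2-fold above each other line in 2.19% of all genes. PIM2, a related kinase, was at 9.11 in REH, with the others between 7.99 and 8.19, while PIM3 lay between 7.61 and 7.73 in all 4 lines. The group differences were -0.52 for PIM2 and -0.08 for PIM3, and 0 of 3 PIM genes passed.

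Seen line by line, SEM was the lowest of the 4 lines in 6 of 10 members (IL7R, JAK2, STAT5A, STAT5B, SOCS1 and SOCS2), against 24.5% of all genes. REH was the highest in 5 of 10 (IL7R, EPOR, JAK2, STAT5B and PIM1), against 25% of all genes. Each line has 1 array, so that these orders have no replicate check, and in STAT5A, SOCS1 and CISH the whole span over 4 lines was at most 0.63. SEM stood at least 2-fold below each other line in IL7R and SOCS2, a rule met by 0.702% of all genes. The 4 lines spanned at least 2-fold in 6 of 10 members, against 19.3% of all genes, and at least 4-fold in SOCS2 and PIM1, against 7.56%.

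Most markers of precursor B cells, though not PAX5, were lowest in SEM. Of 11 measured markers 9 were lowest in SEM, against 24.5% of all genes. The list mean was 10.06 in RS4;11 and 7.94 in SEM, against 11.08 in NALM6 and 10.92 in REH. All 11 markers lay above the median of all gene values in RS4;11 and NALM6, 10 in REH and 6 in SEM. PAX5, the factor that commits cells to the B lineage, was between 11.61 and 11.90 in all 4 lines, with SEM the highest. CD22, a B-cell surface lectin, was between 11.10 and 11.65, with SEM the lowest. DNTT, which adds untemplated bases during V(D)J recombination, was at 6.88 in RS4;11 and 5.11 in SEM, against 11.54 in NALM6 and 12.43 in REH. BLNK, the pre-B receptor adaptor, was at 7.15 and 5.35 in RS4;11 and SEM, against 10.66 and 11.74 in NALM6 and REH, and CD24, a surface antigen of B-cell precursors, at 10.50 and 6.33, against 12.49 and 12.19. DNTT, BLNK and CD24 were parted by at least 2-fold in the same direction as SOCS2 (limma adjusted p = 0.279, 0.327 and 0.610). Parting by at least 2-fold in either direction was found in 1.84% of all genes. SEM was more than 4-fold below each other line in CD24, in the pre-B receptor genes CD79B (7.63) and IGLL1 (8.66) and in CD38 (6.35), as was REH in VPREB1 (5.51). The part of these markers in the values of IL7R, JAK2 and SOCS2 was not tested.

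T cells also carry IL7R, and most T-cell markers were dim here. Of 9 measured 7 were dim in every line, CD3D, CD3E and CD3G lying between 4.54 and 4.97. The exceptions were LCK, at 8.24 in RS4;11 and 8.35 in SEM, against 7.77 in NALM6 and 7.36 in REH, and CD4, at 7.18 in NALM6 and at most 5.04 elsewhere. TRAT1, an adaptor of the T-cell receptor, was at 6.64 in REH and at most 5.20 in the others. Of 8 myeloid markers 5 were dim in every line. The exceptions were MPO, at 7.57 in REH and at most 4.79 in the others, LYZ, at 5.80 in REH and 8.27 to 9.65 in the others, and CSF1R, at 7.69 in SEM and at most 5.88 in the others.

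The rest of the pathway was read from 118 further measured genes, in lists drawn up with earlier results of these data known. Limma's adjusted threshold was passed by 0 of them, and 13 were higher and 3 lower in the translocation lines at an unadjusted p under 0.05 (4.6% and 4.79% of all genes). The median difference was 0.06, and 55 of 118 were below 0. IRS1, an adaptor of insulin and cytokine receptors, was the 1 gene parted by at least 2-fold. It was at 7.91 in RS4;11 and 8.05 in SEM, against 6.59 in NALM6 and 5.92 in REH, so that it was the opposite of SOCS2 in direction (difference 1.72, SE 0.28, limma adjusted p = 0.327).

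Ligand genes were mostly dim, with 9 of 11 below the median of all gene values in every line. PRL, the hormone prolactin whose receptor also signals through JAK2 and STAT5, was bright in RS4;11 only. It was at 11.89 in RS4;11, against 4.94 in SEM, 4.90 in NALM6 and 4.78 in REH, and PRLR, its receptor, lay between 4.40 and 4.53 in all 4 lines. IL7 itself was dim, at 5.46 in RS4;11 and 5.81 in SEM, against 5.22 in NALM6 and 5.10 in REH (difference 0.47, SE 0.17, limma adjusted p = 0.561). GH1, growth hormone, lay above that median in REH alone, at 6.88, and differed by -0.83 (limma adjusted p = 0.681). Of the 11 ligands 0 passed, and the median difference was 0.07.

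Of 31 receptor chains 0 passed in either direction, and the median difference was 0.04. At an unadjusted limma p under 0.05, 6 were higher and 2 lower, against 4.6% and 4.79% of all genes. IL21R, the receptor of interleukin 21, was at 8.37 in RS4;11 and 9.17 in SEM, against 7.68 in NALM6 and 6.65 in REH, without overlap (difference 1.60, SE 0.51, limma adjusted p = 0.520). IL6ST, the gp130 chain shared by the interleukin 6 family, was at 6.70 in NALM6 and between 8.73 and 8.97 in the other lines. IL12RB2, a chain of the interleukin 12 receptor, was at 7.34 in RS4;11 and between 4.61 and 4.88 in the other lines.

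The list of inhibitors held 21 measured genes, SOCS genes included, of which 0 passed, and the median difference was -0.07. At an unadjusted limma p under 0.05, 2 were higher and 1 lower, against 4.6% and 4.79% of all genes. The 2 higher genes were phosphatases of JAK kinases. PTPN2 was at 9.52 in RS4;11 and 9.63 in SEM, against 9.25 in NALM6 and 9.02 in REH (difference 0.44, SE 0.13, limma adjusted p = 0.50), and PTPN1 differed by 0.43 (SE 0.14, limma adjusted p = 0.520). These 2 genes were named after their values were seen. PTPN6, the phosphatase SHP-1, was at 11.24 in RS4;11 and 11.34 in SEM, against 10.64 in NALM6 and 9.08 in REH (difference 1.42, limma adjusted p = 0.617). DUSP6, a phosphatase of the kinase ERK, was set apart in both directions, at 5.79 in RS4;11 and 8.45 in SEM, against 8.48 in NALM6 and 10.79 in REH.

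Further STAT5 targets lay on both sides. Of 25 measured target genes 0 passed, and the median difference was -0.01. Without the 4 members on that list, 21 were left, with 11 differences above 0, 10 below and a median of 0.05. SOCS2 was the 1 gene of this list parted by at least 2-fold. BCL2L1, which encodes the survival protein BCL-XL, was lower without overlap, at 9.91 in RS4;11 and 9.38 in SEM, against 10.23 in NALM6 and 10.81 in REH (difference -0.87, SE 0.31, limma adjusted p = 0.561), and CDKN1A, the cell cycle inhibitor p21, was higher without overlap, at 8.25 and 8.92 against 7.53 and 7.52 in the same order (difference 1.06, SE 0.27, limma adjusted p = 0.459). Both were named after their values were seen. BCL6, a repressor that STAT5 is known to hold down in B-cell precursors, was at 10.99 in RS4;11 and 9.24 in SEM, against 7.32 in NALM6 and 10.76 in REH (difference 1.07, limma adjusted p = 0.845). ID1, an inhibitor of E proteins, was at 7.33 in SEM and between 4.45 and 4.87 in the other lines.

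STAT5 binds the motif TTCNNNGAA, which reads the same on both strands, and the promoters of CISH and BCL6 are shown because, of 18 target genes with a RefSeq promoter entry, these 2 held it. RefSeq entries (GRCh38.p14, 250 bases before to 50 after the start) were found for 9 of 10 members, all but SOCS2, and the motif was in CISH and in none of the other 8. It was in 7.67% of 34796 promoters of this length, and 0.0201% held 4 or more matches. CISH (chr3:50611725-50612024, minus strand) and BCL6 (chr3:187745419-187745718, minus strand) each held 4, and no match overlapped another. Capitals mark the fixed letters of each match, 5′ to 3′.
CISH: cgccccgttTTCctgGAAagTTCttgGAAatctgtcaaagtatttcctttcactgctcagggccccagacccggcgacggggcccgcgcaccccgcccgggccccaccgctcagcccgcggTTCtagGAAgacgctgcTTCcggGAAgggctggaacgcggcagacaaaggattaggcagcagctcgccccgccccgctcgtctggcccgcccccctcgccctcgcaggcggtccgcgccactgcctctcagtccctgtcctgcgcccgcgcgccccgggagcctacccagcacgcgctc
BCL6: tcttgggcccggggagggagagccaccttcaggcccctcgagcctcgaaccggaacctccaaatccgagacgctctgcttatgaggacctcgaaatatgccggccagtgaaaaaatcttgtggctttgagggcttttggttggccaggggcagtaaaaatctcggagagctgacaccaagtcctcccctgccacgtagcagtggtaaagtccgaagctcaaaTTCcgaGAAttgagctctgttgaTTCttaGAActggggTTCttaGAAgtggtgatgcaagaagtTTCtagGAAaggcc
The first base of the match farthest upstream lay at -241 in CISH and at -28 in BCL6, counted with the start as 0. The array values are per gene and are not assigned to a promoter. CISH spanned 0.56 over the 4 lines, while BCL6 was at 7.32 in NALM6 and at least 9.24 in the other lines. A link between the matches and these levels was not tested. A match is a description of the letters and was not tested as a binding site.

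Transcription factors known to control IL7R or the stage that depends on it had a median difference of 0.01 over 12 measured genes, and 0 passed. FOXO1, an activator of IL7R, was at 8.77 in RS4;11 and 7.60 in SEM, against 9.24 in NALM6 and 10.09 in REH (difference -1.48, SE 0.57, limma adjusted p = 0.582). ETS1 was at 9.44 in RS4;11 and 7.93 in SEM, against 9.88 in NALM6 and 10.00 in REH (difference -1.26, SE 0.59, limma adjusted p = 0.644). Both had the 4 lines in the order of IL7R, with SEM lowest and REH highest, as had JAK2, STAT5B and BCL2L1. The same order was found, among others, in PIK3CD, GH1 and CRLF2 and in the precursor B markers DNTT, BLNK, RAG1, CD79B and CD22. It was thus not particular to regulators of IL7R. The share of all genes in this order was not counted, and a link to IL7R was not tested. RUNX1 went the other way, at 11.98 in RS4;11 and 12.03 in SEM, against 10.97 in NALM6 and 11.24 in REH. Its difference was 0.90 (SE 0.14, limma adjusted p = 0.314), and it was named after its values were seen. Of the 12 genes 6 differed above 0 and 6 below. TOX, a chromatin factor of lymphoid development, was at 8.23 in SEM and between 4.45 and 4.81 in the other lines.

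Of 12 measured kinases other than JAKs that feed STAT5, 0 passed. The groups did not overlap in 2 that were lower, an ordering found in 19.8% of all genes. They did not overlap either in 3 that were higher, an ordering whose share of all genes was not counted. Over the 4 lines 9 of them spanned at least 2-fold and 5 at least 4-fold, against 19.3% and 7.56% of all genes. FLT3, a receptor kinase often overexpressed in ALL with rearranged MLL, was at 11.34 in RS4;11 and 12.82 in SEM, against 8.46 in NALM6 and 10.35 in REH (difference 2.68, SE 0.93, limma adjusted p = 0.555). PDGFRA was at 10.76 in NALM6 and below 5 in the other lines. LYN, the Src family kinase of the B-cell receptor, was at 7.76 in REH, with the others between 11.27 and 11.87. Of 14 genes of the adaptor and PI3K arm 0 passed. At an unadjusted limma p under 0.05, 3 were higher and 1 lower, against 4.6% and 4.79% of all genes. PIK3CD, the leukocyte PI3K subunit, was at 9.05 in RS4;11 and 7.99 in SEM, against 9.35 in NALM6 and 9.53 in REH (difference -0.92, limma adjusted p = 0.636), and GAB1 differed by -0.67 (limma adjusted p = 0.721).

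**Figure D4:**
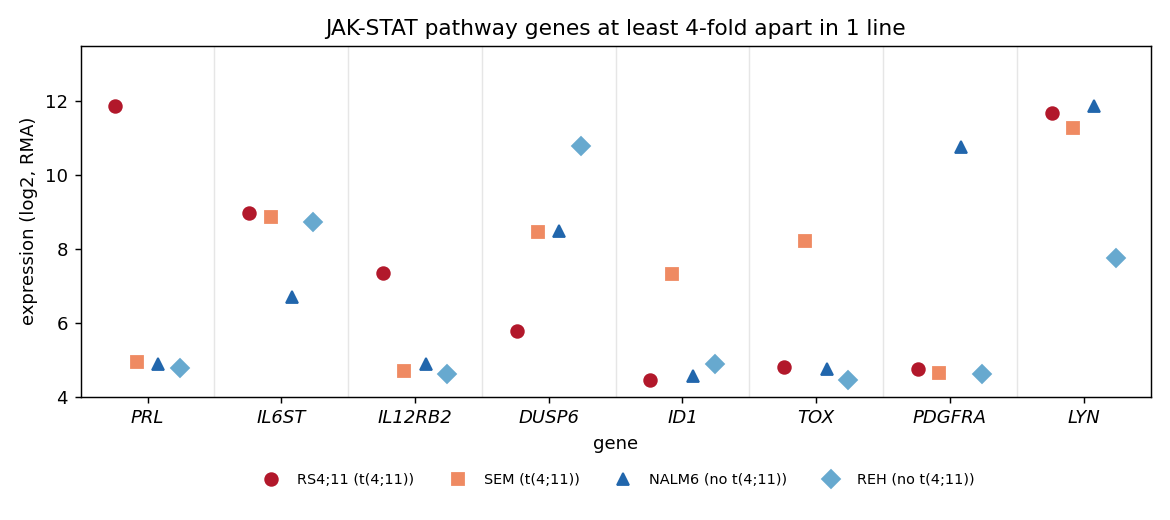
Expression (log2, 1 array per line) of the 8 pathway genes in which 1 line lay at least 4-fold above or below each of the other lines, in the translocation lines RS4;11 and SEM and the non-translocation lines, NALM6 and REH. PRL is at 11.89 in RS4;11 and PDGFRA at 10.76 in NALM6, each below 5 in the other 3 lines, and LYN is at 7.76 in REH.

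Over all pathway genes outside the 10, 19 of 118 (16.1%) spanned at least 4-fold, against 7.56% of all genes.

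Genes with the line pattern most like a member were sought for the 2 members that spanned at least 4-fold. Likeness was the root mean square difference between the 4 line values after each gene was centred on its own mean, in log2 units, over 18377 genes. For SOCS2 the nearest were RGS9, a regulator of G-protein signalling (0.39), NYNRIN (0.44) and NAPEPLD, an enzyme of lipid signalling (0.44). RGS9 was at 5.10 in RS4;11 and 4.96 in SEM, against 8.59 in NALM6 and 8.70 in REH. For PIM1 they were MID1, a ubiquitin ligase of microtubules (0.10), CEP112, a centrosomal protein (0.22), and KCTD1 (0.25). MID1 was at 6.01 in RS4;11 and 7.01 in SEM, against 5.40 in NALM6 and 8.40 in REH. Likeness over 4 lines is a description, with 1 array behind each value.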

How the data were processed

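Total RNA of 4 cell lines was labelled with an Affymetrix whole-transcript kit and measured on 1 array per line, per the labels. The deposited log2 values were made with Partek and RMA, a method that corrects background, equalises the distributions of arrays and summarises probe sets, per the submitters' processing notes. Tool versions were not given in the sources used here. No scale is stated with the values, which were taken as log2 from their range. RMA's quantile step is meant to remove array-wide differences in signal, and the deposited array medians still ranged from 6.40 in NALM6 to 6.46 in SEM. The number of arrays limits the precision.

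Of 32968 probe sets, the 19310 with 1 gene symbol in the platform annotation were used. The probe set with the highest mean stood for a gene, which gave 18377 genes. Groups followed the labels: RS4;11 and SEM formed the translocation group, and NALM6 and REH the other. Replicates were numbered by order of deposit, as names that pair no lines. P-values reflect how far the lines of a group differ, which includes culture and array.

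Differences were fitted with limma 3.58.1 (lmFit, eBayes) in R 4.3.3 without covariates, two-sided, with Benjamini-Hochberg adjustment over all genes. Degrees of freedom were 2 (residual) and 1.34 (prior). The fit was tested on simulated data. Tables used pandas 2.3.3 and numpy 2.4.6, and plots matplotlib 3.10.9, in Python 3.11.15. Alternatives were repeated quantile normalization, centred arrays, averaged probe sets, omission of dim genes, an intensity trend, robust eBayes (statmod 1.5.0), a threshold of 0.1 and leaving out each line. Named genes were the 10 members and, per list, genes that passed, were parted by at least 2-fold, had the 3 largest differences or stood at least 4-fold apart in 1 line, with the 3 nearest patterns of members spanning at least 4-fold. Partners (IL2RG, CRLF2, PRLR) and lineage markers were added. Members and lists were chosen with earlier results of these data known. Some listed genes were not analysed here. Sequencing data of these lines were not used here.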

Additional observations from a re-analysis of the deposited data

How the results depend on the processing

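None of the 10 genes passed limma's threshold under any alternative, and 87 of 97 alternative values kept the sign of the difference. The 10 that did not were CISH with arrays centred on their medians (0.023) and values with 1 line left out. Averaged probe sets, an intensity trend, robust eBayes and omission of dim genes could not change a member's difference, since each member had 1 probe set. Part of the 87 was thus fixed in advance and is no measure of stability. Leaving out each line gave ranges of -0.29 to 0.27 for CISH, -0.91 to 0.13 for EPOR, -0.40 to 0.58 for JAK1, -1.73 to 1.21 for PIM1, -0.26 to 0.12 for SOCS1, -0.50 to 0.060 for STAT5A, -1.42 to -0.26 for IL7R, -1.24 to -0.51 for JAK2, -0.95 to -0.26 for STAT5B and -4.32 to -3.10 for SOCS2, and of 7 to 8 for the number of the 10 genes below 0. EPOR, SOCS1 and CISH were dim and have no value without dim genes. The count of genes that passed was 4, and 28 with centred arrays, 17 without dim genes, 42 at an adjusted p under 0.1 and 0 with each line left out, where 1254 to 2585 genes had an unadjusted p under 0.05. The count of further pathway genes parted by at least 2-fold was 1 (IRS1), 2 with centred arrays (IRS1 and FLT3) and 5 to 11 with each line left out, where fewer lines had to be parted. Other causes of these moves were not tested. Under the 3 alternatives run for line levels, SEM was lowest in 6 and REH highest in 5 of the 10 genes each time, while the number whose lines spanned at least 2-fold was 5 with repeated quantile normalization and 6 otherwise. No paired analysis was possible because each array was of a different line and nothing pairs a line of 1 group with a line of the other. The labels give no replicate numbers, those used here being names in order of deposit.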
